A study of Mus musculus with 43 samples.

Results

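The genes examined here are 10 genes of the MHC class I antigen presentation pathway, chosen by symbol: B2m, H2-K1, H2-D1, Tap1, Tap2, Tapbp, Psmb8, Psmb9, Psmb10 and Nlrc5. The input table holds all 10 among its 13817 genes, and the processing table holds 7 among its 13845 genes. Tap1, Psmb8 and Psmb9 are not rows of the processing table and were not analysed there.

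The cells were PD798, a line from a pancreatic ductal adenocarcinoma of a KPCY mouse, a model whose alleles include Rosa YFP/YFP and p53 L/+ under Pdx1-Cre, so that the cells of the pancreatic lineage carry YFP. In the processing experiment 12 libraries of bulk RNA were made, 3 each from an aliquot banked ahead of sorting (Pre-FACS), from cells held in staining buffer at room temperature for as long as the sort took (Mock), from cells passed through the BD Influx sorter alone (FACS-only), and from cells taken through magnetic depletion and acoustic focusing to the same sorter (Pre-enriched). The sorted cells are described as 1 sample given magnetic particles and red cell lysis buffer, so that FACS-only and Pre-enriched differ in the passage through the pre-enrichment step. The input series comprises 11 single-cell libraries, 12 from pools of 10 cells, 6 from pools of 100 cells and 2 from bulk RNA of the line, or 31 in all. The cells and pools had been spiked into blood of healthy mice, pre-enriched and sorted. All cells were cultured in DMEM with FBS before they were dissociated, and no condition included an interferon or another stimulus. Whether the processing cells also met blood is not settled, because the sample labels mention it and the description of the experiment does not. All libraries come from 1 line of 1 tumor and no separate cultures are named, so that the p-values below measure the spread between these samples, which may be technical.

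MHC class I molecules show peptides from inside the cell to CD8 T cells and to natural killer cells. A class I molecule is a heavy chain, in these cells H2-K1 or H2-D1, held with the light chain beta-2 microglobulin, the product of B2m. Its peptides are cut by the proteasome, carried into the endoplasmic reticulum by the transporter made of Tap1 and Tap2, and loaded with the help of tapasin, the product of Tapbp. Psmb8, Psmb9 and Psmb10 encode the catalytic subunits of the immunoproteasome, which take the places of Psmb5, Psmb6 and Psmb7 in immune cells and in cells exposed to interferon. Nlrc5 is a transactivator of class I genes. Tumors often have low levels of these genes, and interferon-gamma induces most of them in epithelial cells.

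On the mm10 genome 7 of the 10 genes lie on chromosome 17. Tapbp lies at chr17:33915899-33929292, H2-K1 at chr17:33996017-34000347 and H2-D1 at chr17:35262730-35267499. Psmb9, Tap1, Psmb8 and Tap2 follow each other within 34335 bases, at chr17:34181987-34216321. B2m lies at chr2:122147686-122153083, and Psmb10 and Nlrc5 lie on chromosome 8, at chr8:105935735-105938444 and chr8:94434356-94527272.

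The bases upstream of B2m and H2-K1 are shown because factors of the NF-kB, interferon and CCAAT pathways are known to act on class I promoters. Their part in the levels given below was not tested. Both are given 5′ to 3′ on the strand of the gene, from the RefSeq promoter table on GRCm38 (mm10). The B2m stretch is chr2:122147437-122147685 on the plus strand and the H2-K1 stretch is chr17:34000348-34000597 on the minus strand, each ending at the base before the annotated start. Capitals mark matches to the interferon-stimulated response element core (GAAANNGAA), the NF-kB consensus and the CCAAT box, on either strand.
B2m: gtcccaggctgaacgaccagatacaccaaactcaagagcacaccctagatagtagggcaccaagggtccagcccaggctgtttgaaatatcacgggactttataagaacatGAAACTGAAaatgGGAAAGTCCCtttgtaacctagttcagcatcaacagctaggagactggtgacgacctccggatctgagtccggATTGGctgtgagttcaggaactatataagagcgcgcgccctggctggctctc
H2-K1: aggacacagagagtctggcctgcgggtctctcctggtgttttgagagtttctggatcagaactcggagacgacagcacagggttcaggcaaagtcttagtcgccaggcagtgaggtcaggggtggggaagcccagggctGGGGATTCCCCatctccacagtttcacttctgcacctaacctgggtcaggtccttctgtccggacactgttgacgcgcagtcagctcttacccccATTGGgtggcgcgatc

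The heavy chain genes share most of the sequence before their RefSeq starts. The annotations differ for H2-D1, whose RefSeq start lies 364 bases inside the GENCODE gene span given above, so that its stretch shown here lies within a GENCODE exon of H2-D1. A local alignment of the 250 bases before each RefSeq start matched 161 of 177 columns, or 91.0%. The stretch around the NF-kB match, which reads as a match on both strands and in 2 overlapping frames, differed at 1 base, with 29 of 30 bases the same. It lies at chr17:34000439-34000468 (minus strand) for H2-K1 and at chr17:35262913-35262942 (plus strand) for H2-D1, with the match in capitals.
H2-K1: gcccagggctGGGGATTCCCCatctccaca
H2-D1: gcccagggctGGGGATTCCCCatctcctca

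The RefSeq table held promoters for 8 of the 10 genes, those of Tap2 and Nlrc5 not being among them. The NF-kB consensus matched within 250 bases before the RefSeq starts of B2m, H2-K1 and H2-D1 and of no other of the 8, against 3.90% of 32851 mouse promoters. The interferon-stimulated response element core in the spelling GAAANNGAA matched upstream of B2m alone (7.13% of promoters), the gamma-activated site (TTCNNNGAA) upstream of Psmb8 alone (7.02%), and CCAAT upstream of B2m, H2-K1, H2-D1, Tap1, Tapbp and Psmb9 (33.8%). Other spellings of these elements were not searched, so a promoter without a match, such as that of H2-K1, may still hold an interferon element. Tap1 and Psmb9 face away from each other, with RefSeq starts 225 bases apart, while their GENCODE spans overlap by 212 bases. These matches are a description of letters and no binding was measured.

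TPM, the unit of both tables, gives transcripts as parts of a total per library after correction for gene length, so that levels of different genes can be set side by side. It keeps no record of depth, and no counting error could be given. The genes listed in the input series did not sum to the same total in every library. They made up between 54.2% (cell 7) and 99.99% (cell 6) of the full TPM total in the single cells, and 99.92% and 99.99% in bulk RNA. The epithelial markers Krt7, Krt8, Krt18, Krt19 and Cdh1 were high in both tables, with Krt18 between 8377 and 9896 TPM in the processing libraries and at 8780 and 8890 TPM in the bulk RNA of the input series. Epcam, Cldn4 and Cldn7, other epithelial genes, were far lower in the processing libraries (Epcam 32.1 to 38.9 TPM) than in that bulk RNA (811 and 842 TPM). Of 16 leukocyte markers, the processing table holds 3 (Ptprc, Laptm5 and Coro1a), which summed to between 1.10 and 2.49 TPM in every library. The input table holds 4 (Cd79a, Coro1a, S100a8 and S100a9). Of 6 erythroid markers both tables hold 1, Alas2, the first enzyme of heme synthesis in red cell precursors, which was at 0 to 3.33 TPM in the processing libraries and at 0 and 0.42 TPM in that bulk RNA. Leukocytes express class I genes strongly, so marker values are given beside the results they could touch.

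In the processing experiment the chains of the class I molecule were expressed at a high and even level in all 12 libraries. In bulk RNA a smaller share of expressing cells and less RNA per cell cannot be told apart. B2m stood at 292, 243 and 225 TPM in the 3 Pre-FACS libraries, at 282, 277 and 273 TPM in Mock, at 294, 257 and 260 TPM in FACS-only, and at 291, 255 and 287 TPM in Pre-enriched. The Pre-FACS libraries had both the lowest B2m value and the second highest, so that the 4 conditions overlapped. H2-K1 ranged from 140 to 151 TPM in Pre-FACS, from 134 to 168 TPM in Mock, from 138 to 164 TPM in FACS-only, and from 148 to 158 TPM in Pre-enriched. H2-D1 was the steadiest of the 5 genes that passed the filter on low values, with a coefficient of variation of 4.39% over the 12 libraries. Its values were 104, 99 and 98.2 TPM in Pre-FACS, 112, 103 and 102 TPM in Mock, 99.1, 99.5 and 104 TPM in FACS-only, and 98.5, 93.9 and 100.3 TPM in Pre-enriched.

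**Figure D1:**
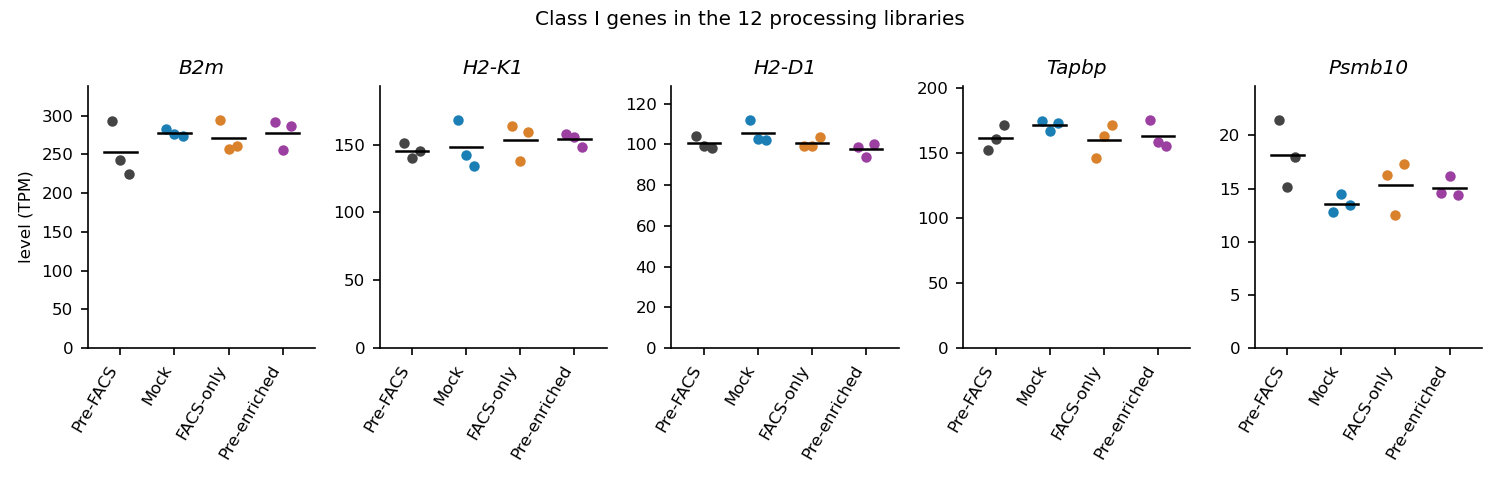
Level in TPM (axes from 0) of the 5 genes that could be tested in the processing experiment, with 1 point for each of 3 libraries per condition and a bar at the mean. B2m lies between 225 and 294 TPM and Psmb10 between 12.5 and 21.4 TPM, and the Psmb10 values of Mock all lie below those of Pre-FACS.

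Tapasin was expressed at a level near that of the heavy chains, and the other 2 members below stayed near 0. Tapbp was at 152, 161 and 171 TPM in Pre-FACS, 174, 167 and 173 TPM in Mock, 146, 163 and 171 TPM in FACS-only, and 175, 158 and 155 TPM in Pre-enriched. It exceeded H2-K1 in 11 of 12 libraries, but the ranges of these genes overlapped. Tap2 stayed between 0 and 0.54 TPM, listed at 0 in 4 libraries, and Nlrc5 between 0 and 0.51 TPM, listed at 0 in 7 libraries. Both fell under the filter of at least 1 TPM in at least 3 libraries and were not tested.

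Psmb10, the immunoproteasome subunit in this table, was expressed at a low level and varied most of the tested genes, with a coefficient of variation of 16.1%. It was at 21.4, 15.2 and 17.9 TPM in Pre-FACS, at 12.8, 14.5 and 13.4 TPM in Mock, at 16.2, 12.5 and 17.3 TPM in FACS-only, and at 14.6, 16.2 and 14.4 TPM in Pre-enriched. All 3 Mock values lay below all 3 Pre-FACS values, while FACS-only and Pre-enriched overlapped with both. Its constitutive counterpart Psmb7 ranged from 235 to 268 TPM, and Psmb10 made up 4.56% to 7.91% of the sum of Psmb10 and Psmb7.

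No difference among the 4 conditions passed the test for any of the 5 genes. With limma on log2(TPM + 1), adjusted by Benjamini-Hochberg over 12159 genes, 0 of the 5 were called by the F test, against 0.107% of all genes tested. The lowest adjusted p was 0.719, for Psmb10 (unadjusted 0.094), and the others were 0.843 for B2m, 0.848 for H2-D1, 0.885 for Tapbp and 0.937 for H2-K1. No unadjusted F test p of these genes was under 0.05, against 919 of the 12159 genes.

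The pairs of conditions gave the same count. Of the 5 genes 0 were called in Pre-enriched against Pre-FACS (0.0493% of all genes), in FACS-only against Pre-FACS (0.123%), in Mock against Pre-FACS (0.00822%), and in the 3 pairs among Pre-enriched, FACS-only and Mock (0% in each). The median log2 difference of the 5 was 0.011 for Pre-enriched minus Pre-FACS, 0.0027 for FACS-only minus Pre-FACS and 0.070 for Mock minus Pre-FACS, beside -0.014, 0.0010 and -0.0046 over all genes tested. Among the other pairs it was 0.0072 for Pre-enriched minus FACS-only, 0.00027 for Pre-enriched minus Mock and -0.039 for FACS-only minus Mock. The values of the conditions did not overlap for 1 of the 5 genes in Mock against Pre-FACS (9.33% of all genes) and in Pre-enriched against Mock (15.4%). They overlapped for all 5 in Pre-enriched against Pre-FACS, FACS-only against Pre-FACS, Pre-enriched against FACS-only and FACS-only against Mock, where 14.2%, 11.6%, 12.3% and 10.5% of all genes did not overlap.

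The largest of the 30 differences was that of Psmb10, which was lower in Mock than in Pre-FACS by a log2 difference of -0.39 (SE 0.14), with an unadjusted limma p of 0.0153 and an adjusted p of 0.997. This was also the only unadjusted p under 0.05 among the 30. Psmb10 was the gene without overlap in that pair. The largest differences of the other genes were 0.14 (SE 0.08, adjusted p = 0.649 by limma) for B2m and 0.08 (SE 0.08, adjusted p = 0.814 by limma) for H2-K1, both in Pre-enriched minus Pre-FACS, -0.11 (SE 0.06, adjusted p = 0.697 by limma) for H2-D1 in Pre-enriched minus Mock, and -0.10 (SE 0.07, adjusted p = 0.940 by limma) for Tapbp in FACS-only minus Mock. H2-D1 was the gene without overlap between Pre-enriched and Mock. The 95% intervals, not adjusted for the 30 comparisons, reached at most a 1.24-fold difference in either direction for B2m, H2-K1, H2-D1 and Tapbp, and 1.61-fold for Psmb10. Larger differences lay outside all intervals of these genes. These widest limits are not limits of detection.

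**Figure D2:**
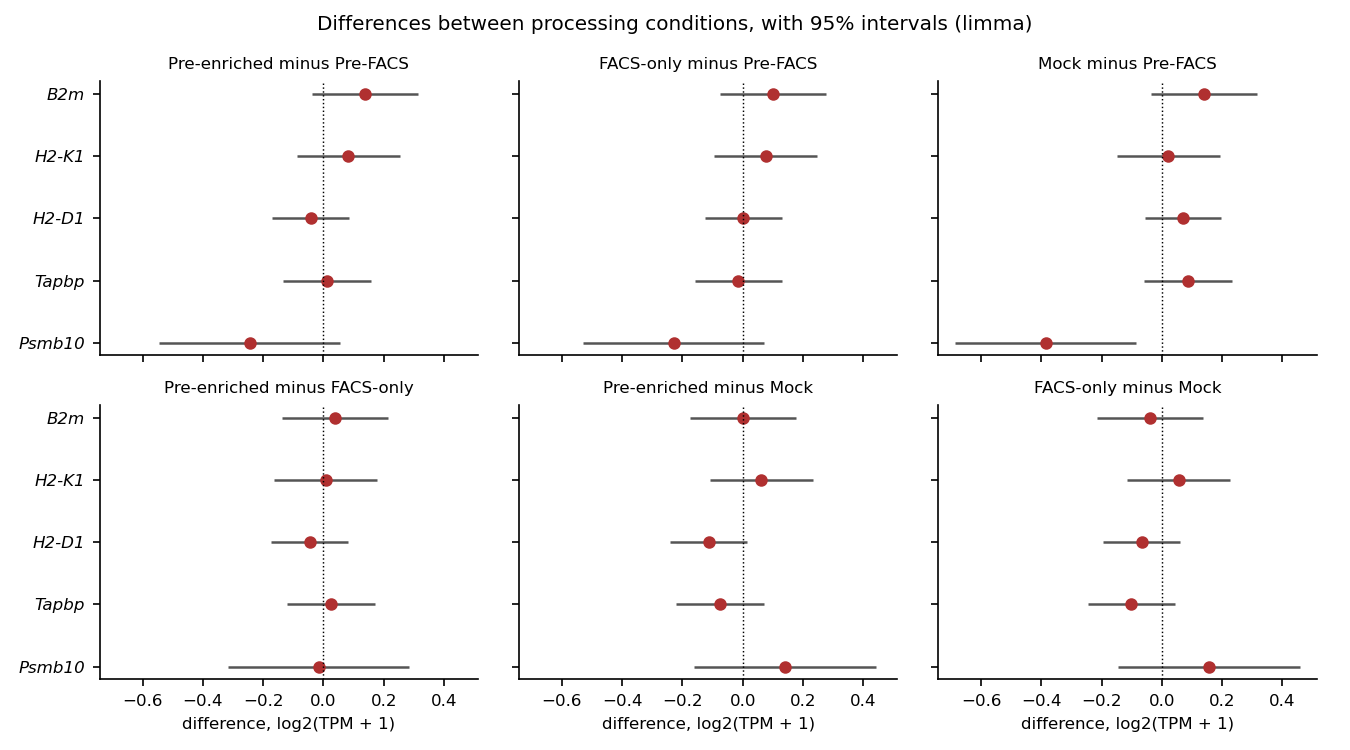
Differences in log2(TPM + 1) between each of the 6 pairs of conditions for the 5 tested genes, as points with 95% intervals from limma. The intervals of 29 of the 30 differences cross 0, and that of Psmb10 in Mock minus Pre-FACS does not, before any adjustment.

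No gene of the wider pathway passed the test either. The 7 lists of other class I heavy chains, loading and trimming factors, proteasome partners, interferon signalling genes, interferon-stimulated genes, class I promoter factors and class II genes hold 89 genes, of which 75 are in the table and 64 were tested. By limma 0 were called in the F test or in any pair. Over all 12159 genes tested, 919 had an unadjusted F test p under 0.05, and among the 64 genes 3 did. These were Hspa5, the endoplasmic reticulum chaperone BiP, with an adjusted p of 0.278, Jak2, a kinase of the interferon-gamma receptor, with 0.366, and Psme2, a subunit of the proteasome activator PA28, with 0.635. Hspa5 ranged from 1255 to 1700 TPM and its largest difference was 0.32 (SE 0.06, adjusted p = 0.0622 by limma) in FACS-only minus Pre-FACS. Jak2 ranged from 124.6 to 161 TPM, with -0.28 (SE 0.07, adjusted p = 0.173 by limma) in Pre-enriched minus Pre-FACS.

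Other genes of these lists place the class I genes among their neighbors. H2-T23, which encodes the nonclassical molecule Qa-1, was at 72.8 to 93.5 TPM, close to H2-D1. The receptor subunit Ifngr1 was at 318 to 367 TPM, the NF-kB subunit Rela at 189 to 246 TPM and the interferon-induced GTPase Irgm1 at 49.95 to 63.2 TPM. Cxcl10, a chemokine induced by interferon-gamma, ranged from 3.93 to 8.28 TPM, and Rfx5, a factor that binds class I and class II promoters, from 11.1 to 20.4 TPM. The class II invariant chain gene Cd74 did not exceed 1.86 TPM. None of these passed the test (lowest adjusted F test p of the 7 with limma 0.670, for H2-T23).

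In the bulk RNA of the input series all 10 genes were listed above 0, and the chains and tapasin stood far above the rest, with B2m at 335 and 355 TPM, H2-K1 at 321 and 320 TPM, H2-D1 at 214 and 213 TPM, and Tapbp at 133 and 137 TPM. The transporter genes followed, with Tap1 at 16.03 and 15.87 TPM and Tap2 at 9.77 and 11.2 TPM. Below them stood Psmb10 at 5.01 and 5.39 TPM, Psmb8 at 2.26 and 4.03 TPM, Psmb9 at 0.69 and 1.02 TPM, and Nlrc5 at 0.28 and 0.35 TPM. No neighbors in this order overlapped between these 2 libraries. The immunoproteasome subunits together made up 0.789% and 1.01% of the TPM of all 6 catalytic subunits, the constitutive Psmb5, Psmb6 and Psmb7 holding the rest.

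Among the single cells the class I chains were found in every library, tapasin in 6 of 11 and the other members in fewer. B2m, H2-K1 and H2-D1 were at 1 TPM or more in 11 of 11 cells, Psmb10 in 5, Tap1 and Tap2 in 3 each, Psmb8 in 2, Psmb9 in 1 and Nlrc5 in 0. Over the 10 genes this made 53 of 110 values, with 3 to 9 genes per cell. For comparison, of 11678 genes at 1 TPM or more in both bulk RNA libraries, the median gene was detected in 6 of the 11 cells. Of the 10 members 8 are among those genes, and Psmb9 and Nlrc5 are not. Cells listed between 3919 and 11438 genes at 1 TPM or more. TPM holds no depth, so a value of 0 in a cell cannot be told apart from a transcript that was missed. The 4 leukocyte markers summed to between 0 and 115 TPM in the single cells (median 6.49 TPM) and to between 0 and 99.5 TPM in the 10-cell pools (median 4.46 TPM), with Cd79a listed at 0 in 22 of the 31 libraries, and their part in the class I levels was not tested. In the single cells S100a8 reached 95.9 TPM and S100a9 18.4 TPM, while Cd79a and Coro1a did not exceed 0.43 and 0.82 TPM. S100a8 was also at 37.4 and 51.0 TPM in the 2 bulk RNA libraries. Alas2 was at 278 TPM in cell 11 and under 1 TPM in the other 10 cells, and in the 10-cell pools it ran from 0 to 83.3 TPM (pool 10) with a median of 7.92 TPM.

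The libraries labelled single cells 6 and 9 stood apart from the other 9, with 11438 and 11223 genes detected against 3919 to 8598. Cell 6 had 9 of the 10 genes and cell 9 had 8. Without them, 36 of 90 values reached 1 TPM, Psmb8 and Psmb9 were in 0 of 9 cells, and Tap1 and Tap2 were in 1 cell each. The same held among the 10-cell pools for pools 5 and 12, with 11497 and 11498 genes against 9149 to 10760. Detection counts, medians of the chains and tapasin, and correlations are therefore also given without these libraries where they include them.

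The levels of the chains differed between cells by a wider margin than between bulk libraries. Values are as deposited and part of the margin lies in the total of listed genes, 65.0% in cell 8 and 99.98% in cell 9. Rescaling to that total moved 0 of 40 medians of a gene in an input by more than the SD between the libraries of that input. That SD itself holds the differences in total, and the ranges between cells were not rescaled, so this does not size their part in the margin. The highest and lowest cells named below are those of the deposited values and can change with rescaling. Cell 7, for example, had 241 TPM of H2-K1 at a listed total of 54.2%. B2m ranged from 70.8 TPM (cell 8) to 532 TPM (cell 9) with a median of 217 TPM, H2-K1 from 42.6 TPM (cell 10) to 351 TPM (cell 9) with a median of 224 TPM, and H2-D1 from 53.9 TPM (cell 2) to 263 TPM (cell 6) with a median of 126 TPM. Without cells 6 and 9 the medians were 211 TPM for B2m, 139 TPM for H2-K1 and 110 TPM for H2-D1, and the highest values 475, 320 and 236 TPM. B2m and the heavy chains did not rank the cells alike. Cell 8, the lowest in B2m, had 235 TPM of H2-K1 and 236 TPM of H2-D1, while cell 10 had 316 TPM of B2m beside 42.6 TPM of H2-K1 and 61.2 TPM of H2-D1. The ratio of B2m to the summed heavy chains accordingly ran from 0.151 in cell 8 to 3.04 in cell 10.

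Tap1, Tap2, Psmb8 and Psmb10, the genes of lower bulk level, were under 1 TPM in most cells and varied among the others. Tap1 was at 52.4 TPM in cell 5, at 7.30 TPM in cell 6 and at 7.45 TPM in cell 9, and at most 0.18 TPM in the other 8 cells. Tap2 was at 8.51 TPM in cell 6, 4.56 TPM in cell 9 and 9.73 TPM in cell 10, so that the subunits of the transporter were found together at 1 TPM or more in cells 6 and 9 alone. Tapbp, a gene of high bulk level, was at most 0.41 TPM in 5 cells and reached 318 TPM in cell 11, more than in any other library of the series. Psmb10 was likewise highest in cell 11, the cell with Alas2, at 66.1 TPM, was between 10.9 and 12.8 TPM in cells 1, 6, 9 and 10, and was listed at 0 in 6 cells. Psmb8 was at 3.13 and 3.48 TPM in cells 6 and 9 and listed at 0 in 9 cells.

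In the pools of 10 cells 5 of the members were found in every library. In all 12 pools B2m (343 to 933 TPM, median 430 TPM), H2-K1 (113 to 370 TPM, median 226 TPM), H2-D1 (81.6 to 263 TPM, median 190 TPM), Tapbp (14.5 to 117 TPM, median 37.5 TPM) and Psmb10 (5.84 to 18.4 TPM, median 10.4 TPM) were at 1 TPM or more. Tap1 was so in 9 pools (highest 10.4 TPM), Psmb8 in 8 (highest 16.5 TPM), Tap2 in 4 (highest 9.33 TPM) and Psmb9 in 1 (5.97 TPM, pool 10). The total was 82 of 120 values, and 66 of 100 without pools 5 and 12. The median gene of the 11678 was detected in 12 of 12 pools, a number that 5 of the 8 members among those genes reached. Without pools 5 and 12 the medians were 499.9 TPM for B2m, 225 TPM for H2-K1, 174 TPM for H2-D1 and 33.5 TPM for Tapbp. Those pools held the 2 highest values of H2-K1, Tap2 and Tapbp, and the remaining 10 pools did not exceed 4.22 TPM of Tap2 or 54.9 TPM of Tapbp. The immunoproteasome share of catalytic subunit TPM ran from 0.412% to 1.89% with a median of 0.809%.

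**Figure D3:**
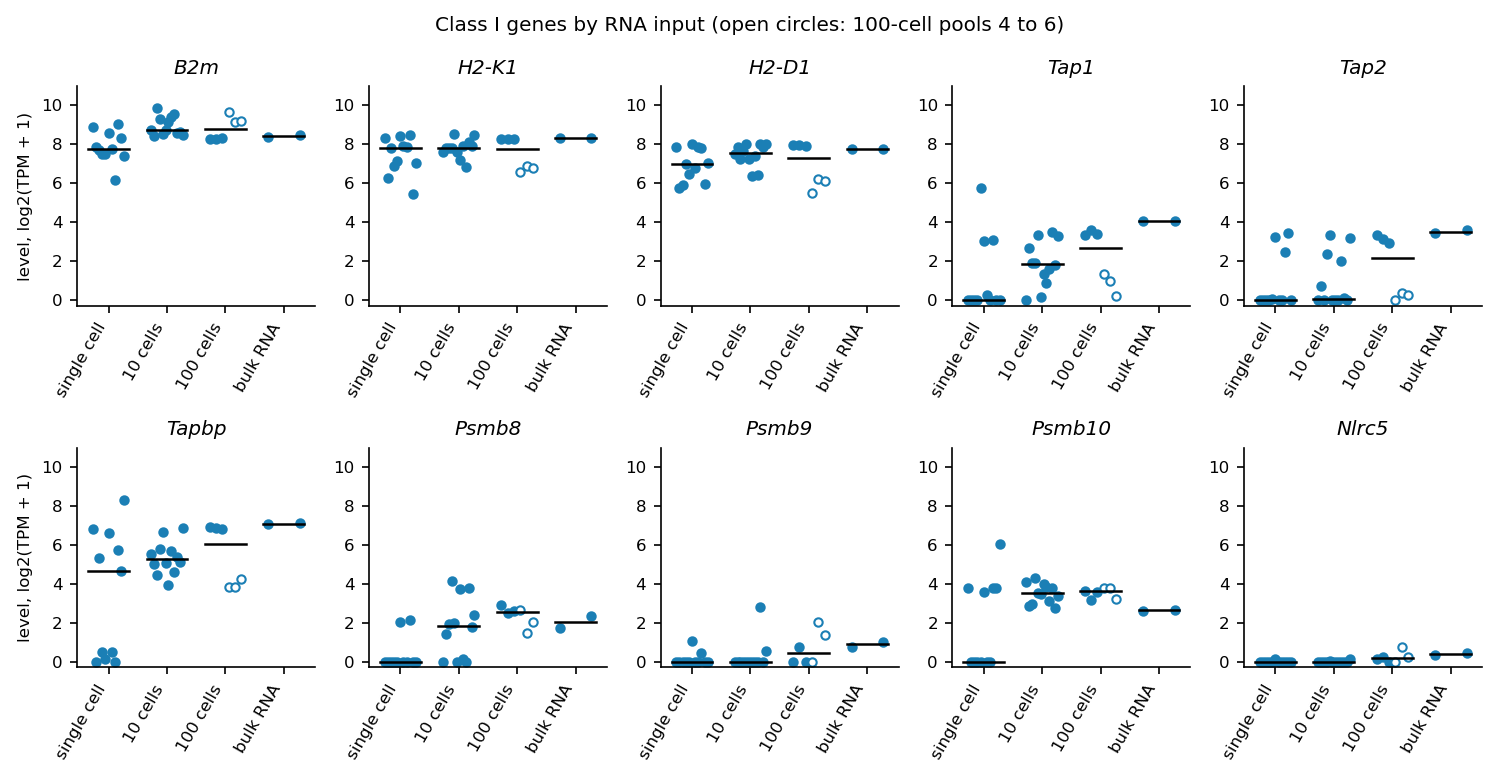
Level as log2(TPM + 1) of the 10 genes in each library of the input series (11 single cells, 12 pools of 10 cells, 6 pools of 100 cells, 2 bulk RNA libraries), with bars at the medians and open circles for 100-cell pools 4 to 6. H2-K1, H2-D1, Tap1, Tap2 and Tapbp are lower in the open circles than in pools 1 to 3, and B2m is higher.

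The 6 pools of 100 cells fell into 2 sets, pools 1 to 3 and pools 4 to 6, which did not overlap for 6 of the 10 genes, 5 of them higher and 1 lower in pools 1 to 3. Of 11324 genes at a mean of 1 TPM or more in these pools, 60.6% did not overlap and were higher in pools 1 to 3, and 17.1% did not overlap and were lower there. Psmb9 and Nlrc5, at means of 0.90 and 0.18 TPM in the 100-cell pools, are counted in the 10 but are not among those 11324 genes. H2-K1 was at 314, 310 and 309 TPM in pools 1 to 3 and at 95.5, 117 and 110 TPM in pools 4 to 6. H2-D1 was at 245, 251 and 243 TPM against 44.0, 73.3 and 69.1 TPM, and Tapbp at 118, 117 and 112 TPM against 13.3, 13.1 and 17.9 TPM. The transporter genes followed the heavy chains.

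Tap1 was at 9.04, 11.4 and 9.55 TPM in pools 1 to 3 and at 1.55, 0.97 and 0.15 TPM in pools 4 to 6. Tap2 was at 9.28, 7.92 and 6.62 TPM against 0, 0.28 and 0.18 TPM. B2m went the other way, with 304, 305 and 320 TPM in pools 1 to 3 and 817, 561 and 585 TPM in pools 4 to 6. Psmb10 (8.00 to 11.5 TPM against 8.28 to 13.0 TPM), Psmb8, Psmb9 and Nlrc5 overlapped between the sets.

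These contrasts were part of a shift across the whole transcriptome. The sets were noticed in these data and were given no test. The difference moved with gene length: the median log2 ratio of pools 4 to 6 over pools 1 to 3 was 0.55 for 619 genes with under 1500 exonic bases, -0.53 for genes of 1500 to 3000 bases, -1.11 for genes of 3000 to 5000 bases and -0.93 for longer genes. Over all genes at 5 TPM or more in both bulk RNA libraries it was -0.84, and Spearman's rho with length was -0.18. B2m, with 860 exonic bases the shortest of the 10 genes, had a log2 ratio of 1.08, H2-K1 (2938 bases) -1.53, H2-D1 (2579 bases) -1.97 and Tapbp (3628 bases) -2.89. Length did not order all members: Psmb9 (3660 bases) had 1.05, Nlrc5 (8493 bases) 0.25 and Psmb8 (3381 bases) -0.57, all at low levels, and the constitutive subunit Psmb7 (3421 bases) 0.91. Tap2 (3781 bases) had -2.95 and Tap1 (5476 bases) -2.54, both at low levels in pools 4 to 6. Tap2 stood at percentile 3.95 of the genes at 5 TPM or more, Tapbp at 4.51, Tap1 at 8.04, H2-D1 at 17.2, H2-K1 at 28.0 and B2m at 97.7. The 4 leukocyte markers summed to between 41.1 and 66.1 TPM in pools 1 to 3 and to 42.2, 150 and 36.2 TPM in pools 4, 5 and 6, beside 47.1 and 61.9 TPM in the bulk RNA. Alas2 ranged from 4.75 to 11.6 TPM in pools 4 to 6, above the range of 1.03 to 1.94 TPM of pools 1 to 3. The part of length or of blood RNA in the levels of the class I genes was not tested.

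In the pools of the input series the ratio of H2-K1 to H2-D1 spanned a narrower range than that of B2m to both, while in the processing libraries the 2 ratios had ranges of like width. H2-K1 over H2-D1 was 1.24 to 1.28 in 100-cell pools 1 to 3, 1.59 to 2.17 in pools 4 to 6, 0.971 to 1.80 in the 10-cell pools and 1.5 in both bulk RNA libraries. B2m over the sum of H2-K1 and H2-D1 was 0.543 to 0.581 in 100-cell pools 1 to 3 and 2.96 to 5.86 in pools 4 to 6. It ran from 0.579 to 3.79 in the 10-cell pools, and was 0.627 and 0.666 in bulk RNA. In the processing libraries the ratio of B2m to the heavy chains stayed between 0.924 and 1.16 and that of H2-K1 to H2-D1 between 1.31 and 1.66.

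**Figure D4:**
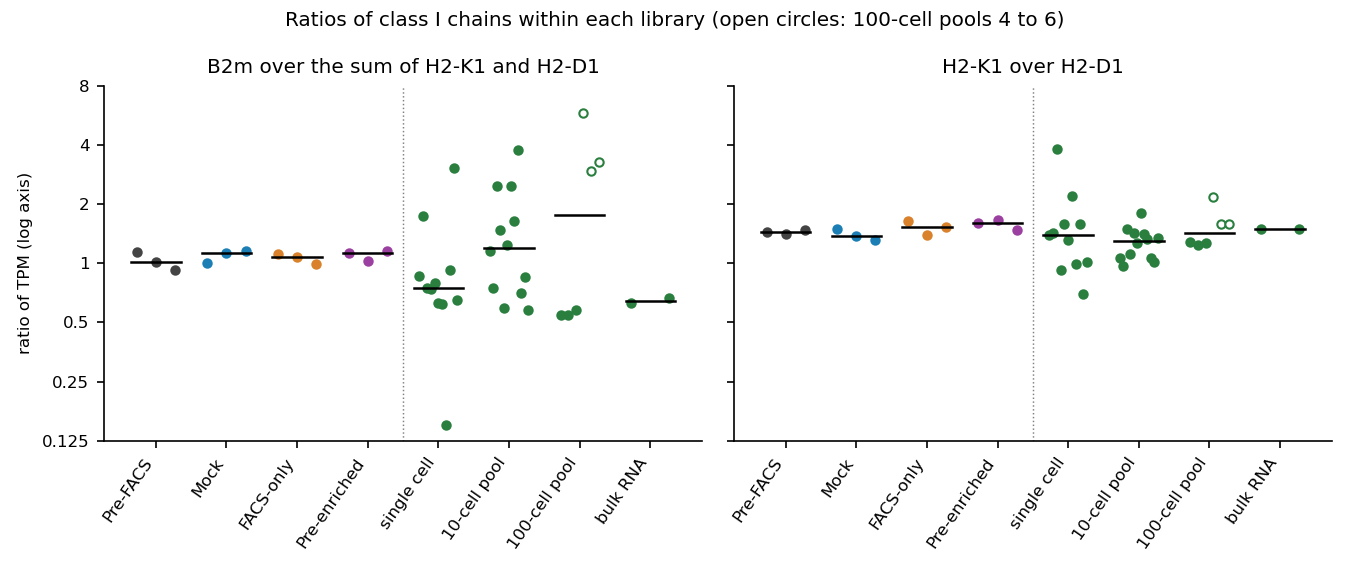
Ratio of B2m to the summed heavy chains (left) and of H2-K1 to H2-D1 (right) in each library on a log axis, with bars at the medians, the processing conditions left of the dotted line, the input series right of it and open circles for 100-cell pools 4 to 6. The B2m ratio spans 0.151 to 5.86 in the input series and 0.924 to 1.16 in the processing libraries.

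Over the 18 pools and 2 bulk RNA libraries, H2-K1 and H2-D1 had a Pearson r of 0.946 on log2(TPM + 1), H2-K1 and Tapbp 0.888, and Tap2 and Tapbp 0.843, while B2m had -0.717 with H2-K1 and -0.750 with Tapbp. Without 10-cell pools 5 and 12 these values were 0.945, 0.871, 0.818, -0.700 and -0.733. These correlations describe 20 libraries that share the split of the pools and their differences in gene detection. Over the 12 processing libraries, where no such split was present, H2-K1 and H2-D1 had an r of 0.263 and B2m and H2-K1 0.400. Tap1 and Psmb9, the neighbors with opposite strands, had an r of 0.182 over the 20 libraries and 0.218 without those pools. Psmb9 was listed at 0 in 10 of the 12 10-cell pools and in 3 of the 6 100-cell pools, so this r says little about the pair. Tap1 and Psmb8 had an r of 0.481 and Psmb8 and Psmb9 0.264, so that the mean pattern of Tap1, Psmb8 and Psmb9 is a loose one. The genes most like that pattern over these 20 libraries, out of 12314, were Fam122b (r = 0.877), Csf1 (0.839), Zfp869 (0.831), Ifit2 (0.812) and 9930014A18Rik (0.806), beside a median of 0.251 and a 99th percentile of 0.675 over all genes. Ifit2 was itself listed at 0 in 8 of 12 10-cell pools. Without those pools the same 5 genes had an r between 0.803 and 0.882, with Ifit2 at rank 5 and 9930014A18Rik at rank 8. The 18 libraries left are part of the 20 by which these genes were chosen, so this is no separate check.

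Bulk RNA of the same line had a different class I profile in the 2 tables. The tables were normalized separately and hold different sets of genes, so that levels are set side by side with no test. The heavy chains were lower in the processing libraries, with H2-K1 at 134 to 168 TPM beside 321 and 320 TPM in the bulk RNA of the input series, and H2-D1 at 93.9 to 112 TPM beside 214 and 213 TPM. Tap2 was at 0 to 0.54 TPM beside 9.77 and 11.2 TPM, and B2m at 225 to 294 TPM beside 335 and 355 TPM.

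Tapbp and Psmb10 were higher in the processing libraries instead. Tapbp was at 146 to 175 TPM beside 133 and 137 TPM, and Psmb10 at 12.5 to 21.4 TPM beside 5.01 and 5.39 TPM. Ratios inside a library, which do not depend on its scaling, differed too: Tapbp over H2-K1 was 0.892 to 1.29 in the processing libraries and 0.415 and 0.429 in the bulk RNA, and Psmb10 was 1.83% and 1.94% of the sum of Psmb10 and Psmb7 in the bulk RNA, below its range in the processing libraries. H2-K1 over H2-D1 did not part the tables, the bulk RNA value of 1.5 lying within the processing range. All 6 members at a mean of 1 TPM or more in either set lay apart between them, as did 64.1% of 12084 genes. By within-library percentile the gap between the tables was 27.3 points for Tap2, 14.3 for Psmb10, 10.8 for H2-D1, 7.17 for H2-K1, 2.43 for Tapbp and 1.41 for B2m, beside a median of 5.49 over those genes.

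**Figure D5:**
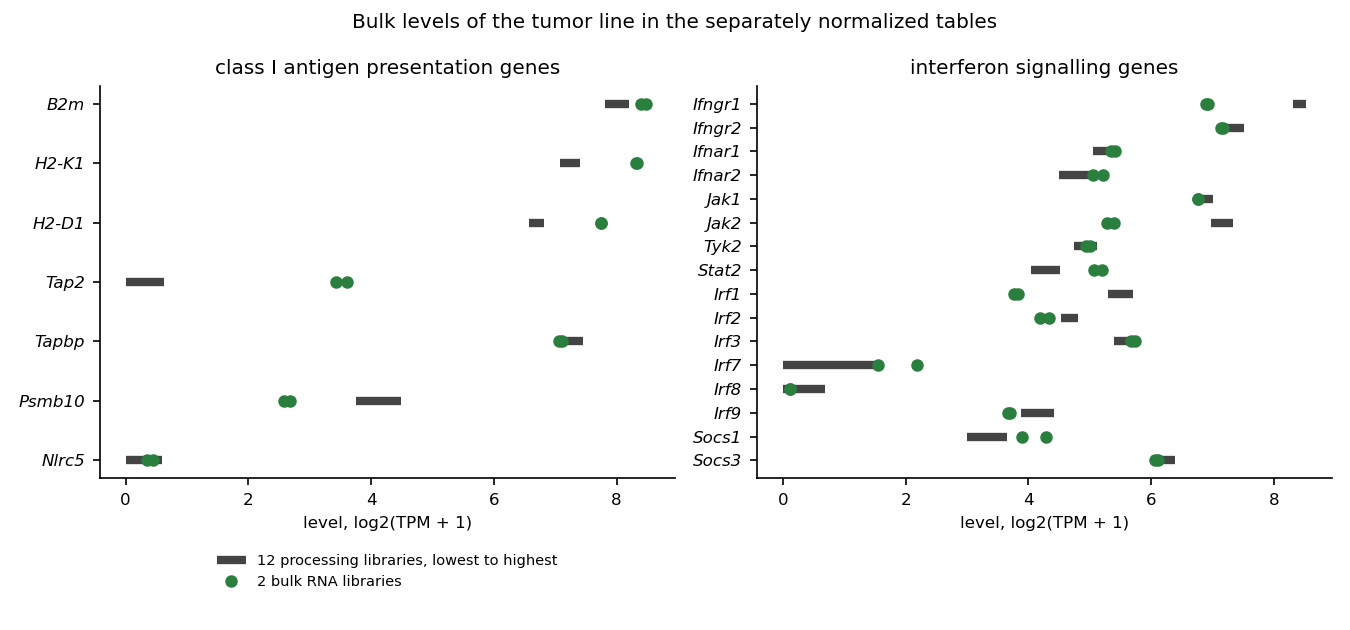
Level as log2(TPM + 1) of the 7 class I genes in both tables (left) and of 16 interferon signalling genes (right), with bars from the lowest to the highest of 12 processing libraries and points for the 2 bulk RNA libraries of the input series. H2-K1, H2-D1 and Tap2 points lie right of their bars, and Psmb10, Ifngr1, Jak2 and Irf1 points lie left of them.

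Genes of the interferon pathway lay apart between the tables in both directions, at about the share of all genes (64.1%, 4271 lower and 3469 higher in the bulk RNA of the input series). Of 16 interferon signalling genes at a mean of 1 TPM or more in either set, 10 (62.5%) lay apart, 6 of them lower and 4 higher in that bulk RNA. Ifngr1 was at 318 to 367 TPM in the processing libraries beside 118 and 121 TPM, Jak2 at 124.6 to 161 TPM beside 41.1 and 37.9 TPM, and Irf1, an interferon-induced transcription factor that acts on class I genes, at 38.3 to 51.0 TPM beside 12.7 and 13.2 TPM. Of 18 interferon-stimulated genes 11 (61.1%) lay apart, 4 of them lower in the bulk RNA, among them Irgm1 (49.95 to 63.2 TPM beside 8.69 and 10.45 TPM), and 7 higher, among them Bst2 (31.6 to 45.9 TPM beside 112 and 97.2 TPM). All 7 proteasome partners lay apart. Psmb5 and Psmb6 were higher in the bulk RNA, at 288 and 306 TPM and at 445 and 447 TPM, than their highest processing values of 254 and 372 TPM. Psmb7 lay apart by a negligible margin, at 268.02 and 272.39 TPM beside a highest processing value of 267.98 TPM.

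Reads of H2-K1 and H2-D1 can also fit other class I genes. Of all words of 75 bases in their transcripts, 3.10% of those of H2-K1 (with H2-Q10 and H2-Q7 most often) and 5.40% of those of H2-D1 (with H2-Q1 and H2-T23 among them) occur in another gene, against 1.10% for Tapbp and 0% for the other 7 genes. The strain background of the line is not given in the sources used here, and H2 genes vary between mouse strains while the reads were aligned to mm10, so that the levels of H2-K1 and H2-D1 carry this uncertainty.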

How the data were processed

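The authors aligned reads to mm10 with added ERCC92 sequences (STAR, listed as version 2.52 in the submitters' processing notes), counted them per gene (featureCounts), normalized by the upper quartile (EDASeq) and deposited TPM. The annotation and the rule for choosing genes are not given in the sources used here. Columns of values left unused numbered 0.

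Deposited TPM was taken to log2(TPM + 1), which understates changes of low genes. For the processing libraries, the 12159 genes reaching 1 TPM in 3 or more of 12 libraries were fitted with limma (3.58.1, R 4.3.3, mean-variance trend). P-values were adjusted by Benjamini-Hochberg, with calls at 0.05, and the fit was tested on simulated data. The input series was described with no test, since no separate cultures are named. Detection means 1 TPM or more. Positions, exonic lengths and words of 75 bases come from GENCODE on mm10, and promoters from RefSeq.

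Named beside the members were, of each list, the gene of lowest F test p and that of highest mean TPM, Psmb5, Psmb6 and Psmb7, and the 5 genes most like Tap1, Psmb8 and Psmb9. Other list genes were named after their values were seen. Further alleles of the model and a gene of the lists are not reported here. Members and lists were chosen with earlier results of these data known.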

Additional observations from a re-analysis of the deposited data

Results flagged for a closer look

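Among 13 sets of values from the 6 pools of 100 cells, 1 held a library far from the others. Nlrc5 was at 0.676 TPM in pool 5 and at 0 to 0.18 TPM in the other 5 pools, all under the level of 1 TPM taken as detection. Chance flags about 1 in 20 such sets.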

How the results depend on the processing

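The count of class I genes called stayed at 0 in 132 of 132 alternatives over the 4 conditions and the 6 pairs, with a lowest adjusted p of 0.217 by limma, for B2m in Pre-enriched minus Pre-FACS (log2 difference 0.25) without Pre-FACS replicate 1. The median log2 difference of Pre-enriched minus Mock moved from 0.00027 to -0.076 when Tap2 and Nlrc5 entered without the filter on low values, and the other medians kept within the spread between replicates of 0.07. The immunoproteasome share of the 100-cell pools was 1.23% as the median of the 3 subunit pairs, in place of 0.860% of the summed TPM. No largest difference of the 5 tested genes was reversed, and 4 of 289 single-gene values moved by more than the spread between replicates, none of them in a test.

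Whether replicate numbers pair the libraries is not settled. Of 18 same-numbered pairs 2 had deviations correlated above 0.1 (range -0.04 to 0.23), beside -0.16 to 0.08 for pairs of other numbers. Of 12 libraries 9 correlated best with a library of their own number. The main fit held no term for the replicate number. With the replicate block, 0 class I genes were called (lowest adjusted p 0.396 by limma), while over all genes the block raised the F test count from 13 to 61 and that of FACS-only against Pre-FACS from 15 to 77, and limma without trend lowered them to 1 and 0. Leaving out 1 library at a time, the F test called between 1 and 17 of all genes. Leaving out single cells 6 and 9 and 10-cell pools 5 and 12 was chosen after seeing the data. Depth is unknown, so that values near 0 could not be given a floor.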
